A study of Mus musculus with 4 samples.

Results

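The stress keratins 6, 16 and 17 are encoded in the mouse by Krt6a, Krt6b, Krt16 and Krt17. All gene probes that the array files name after these genes were taken, which gave 4 genes with 1 probe each, out of 15552 genes measured above background. The arrays read RNA of back skin at postnatal day 10, from mice with Adam17, a membrane-bound metalloprotease gene, deleted in keratinocytes. The knockout animals (cKO, for conditional knockout) carried floxed alleles of Adam17 on both chromosomes and Cre recombinase under the keratin 14 promoter (Krt14-Cre). Their control littermates carried the same floxed alleles without Cre. There were 2 animals of each genotype, taken as littermate pairs from 2 litters. All carried mixed 129Sv and C57BL/6 ancestry, and each animal's RNA was read on 1 array. The keratin 14 promoter is active in the basal epidermis and the outer root sheath of the hair follicle, so cells outside that lineage, such as those of the dermis, fat and muscle, keep the gene. The design has no group with Cre alone. Of 13 keratinocyte marker genes, 12 were measured above background, as were 10 of 10 fat cell and 11 of 11 skeletal muscle genes. Over all genes the filter kept 15552 of 28023, so this count alone does not identify the tissue.

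Keratins form the intermediate filaments of epithelial cells, always as pairs of a type II and a type I chain. Keratins 6a and 6b are type II chains that can pair with the type I chains keratin 16 and keratin 17. In resting skin these genes are expressed mainly in the hair follicle (the companion layer and outer root sheath), and keratin 17 is the most widespread of them there. In wounded, inflamed or hyperproliferative skin they are switched on in the epidermis between the follicles, where keratins 5 and 14 (basal layer) and keratins 1 and 10 (suprabasal layers) otherwise predominate.

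What each probe can tell apart decides how the values read, so the probe sequences are given first. The Krt6b probe is shown whole because the array files list it for the RefSeq transcripts of both Krt6b and Krt6a. Its signal therefore cannot be assigned to Krt6b alone. The last 30 of 60 bases are shown for the other probes, each listed for its own gene only, and capitals mark a polyadenylation signal (AATAAA or ATTAAA) where the script found one.
Krt6b: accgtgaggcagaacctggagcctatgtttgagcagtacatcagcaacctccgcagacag
Krt6a: tcaccaagagcttgtctctggtcccagatg
Krt16: aggctAATAAAgctttttggttgatgcaaa
Krt17: tgcttgagaccATTAAAgcttgctgacctg
In mm9 coordinates as the files give them, the Krt6b probe lies at chr15:101509450-101509509 and the Krt6a probe at chr15:101520862-101520921. The Krt16 probe lies at chr11:100107405-100107464 and the Krt17 probe at chr11:100117584-100117643, and all are on the minus strand. No exon annotation of mm9 was used here. The longest stretch that any of the 4 probes shared with 1 of the 49 other keratin probes of the array was 9 bases. Probes were compared with probes and not with transcripts, so this cannot show which other keratin transcripts a probe may bind.

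All 4 arrays shared 1 slide and 1 scan time. Of 43379 gene spots, 53.7% to 56.6% exceeded background clearly on each array, and no gene spot was saturated. Adam17 stood at 0.44 and 0.37 in the controls and at -0.14 and -0.12 in the cKO animals of litters 1 and 2, that is, at 69.0% of control (adjusted p = 0.114, limma). This level and all others are log2 signals relative to the array's 75th percentile, and differences are cKO minus control. They describe the change of 1 probe between animals, since probes cannot be ranked against each other by brightness.

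The stress keratins did not move as a block. The 2 keratin 6 probes read higher in both cKO animals than in both controls. As the Krt6b probe is also listed for Krt6a, they are not 2 independent genes in the counts below. Krt16 was higher by less and mainly in litter 2. Krt17 was close to its control level as reported (-0.09), but differed by -0.39 under normexp background correction. The sign of Krt16 turned under normexp background correction, but not when 3 spots below their local background were left out. None of the 4 passed an adjusted p of 0.05 in limma over all genes, a threshold that 53 genes (0.341%) passed, 0.0707% higher and 0.27% lower in cKO skin. At an unadjusted p of 0.05, 2 of the 4 passed (Krt6a and Krt6b), as did 16.2% of all genes. Both cKO arrays lay above both control arrays for 3 of the 4 genes, against 28% of all genes, and below them for Krt17 (a sign that quantile normalization turned), against 21.4% of all genes. With 2 arrays per group the fit recovered 45.9% of genes simulated with a 2-fold change and 88.7% of those with a 4-fold change. These rates hold for the simulated data only. In the real data, 0 of the 156 genes in the lists below passed, among them the interleukin gene Il1f6 at 4.96-fold (adjusted p = 0.0534, limma).

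**Figure D1:**
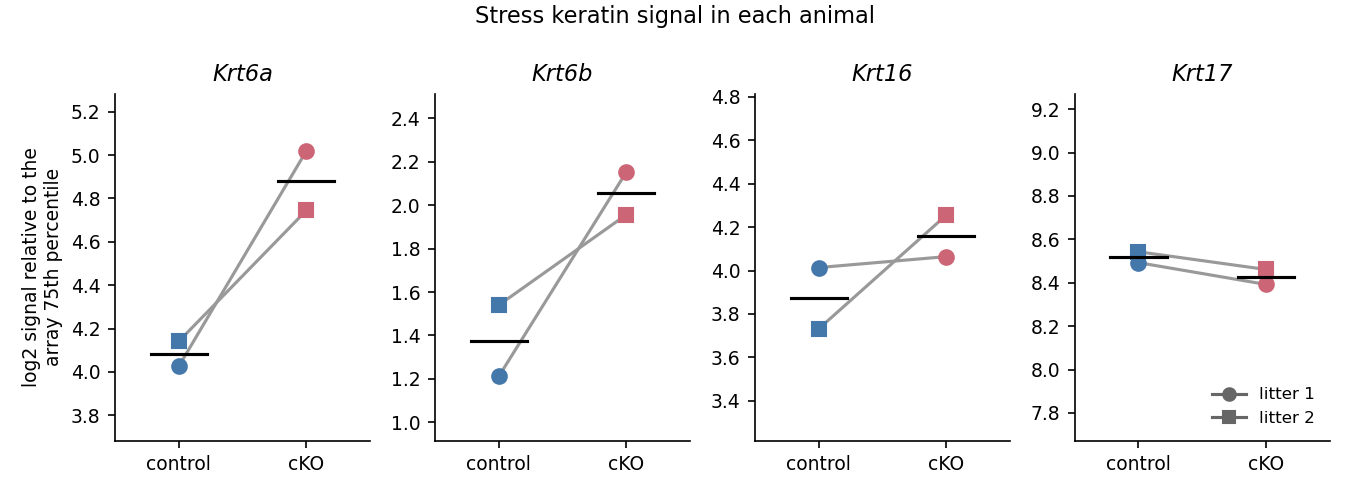
Log2 signal of each stress keratin relative to the array's 75th percentile (y axis, a range of equal width in each panel) in control and cKO skin (x axis). Each point is 1 animal, lines join littermates and bars are group means. Krt6a and Krt6b are higher in both cKO animals, Krt16 differs mainly in litter 2, and the Krt17 points lie close together.

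Krt6a, the type II keratin that is induced at wound edges, gave processed signals of 12253 and 13837 scanner units in the controls of litters 1 and 2 and of 25057 and 20856 in the cKO animals. On the relative log2 scale these were 4.03 and 4.14 in the controls and 5.02 and 4.75 in the cKO animals. Both cKO values lay above both control values, and the lowest cKO value was that of litter 2. The group means were 4.08 ± 0.08 in control and 4.88 ± 0.19 in cKO skin (SD, n = 2 each). The cKO signal was 1.74-fold that of control, with a 95% interval of 1.37 to 2.21, and the log2 difference was 0.80 ± 0.13 (SE; adjusted p = 0.115, limma). It ranked 175 of 15552 genes from the highest difference down. In a biopsy of whole skin, a change in the number of cells that express the gene and a change in RNA per cell cannot be told apart.

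The probe named for Krt6b, the tandem copy of Krt6a, gave 1740 and 2279 scanner units in the controls of litters 1 and 2 and 3435 and 3018 in the cKO animals. The log2 values were 1.21 and 1.54 in the controls and 2.15 and 1.96 in the cKO animals. The groups did not overlap, and the control of litter 2 lay nearest to the cKO values. The means were 1.38 ± 0.23 and 2.05 ± 0.14 (SD, n = 2 each), a 1.60-fold higher cKO signal with a 95% interval of 1.20 to 2.13 (log2 difference 0.68 ± 0.15, SE; adjusted p = 0.175, limma). As this probe is also listed for Krt6a, the 2 results are not independent readings of 2 genes. Krt6a minus Krt6b differed by 0.12 between the groups (0.05 in litter 1 and 0.19 in litter 2; exact permutation p = 0.667, two-sided).

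Krt16, the type I keratin known as a marker of activated epidermis, gave 12139 and 10408.5 scanner units in the controls of litters 1 and 2 and 12923 and 14849 in the cKO animals. The log2 values were 4.01 and 3.73 in the controls and 4.06 and 4.25 in the cKO animals. The groups were separated only by the small step between the littermates of litter 1. The means were 3.87 ± 0.20 and 4.16 ± 0.13 (SD, n = 2 each), a fold of 1.22 with a 95% interval of 0.94 to 1.59. The log2 difference of 0.29 ± 0.14 (SE) did not pass the test (adjusted p = 0.418, limma), and it was 0.05 in litter 1 against 0.52 in litter 2. Without control replicate 1 it was 0.43, without control replicate 2 0.15 and without cKO replicate 2 0.19. Its sign was reversed (-0.0066) under the normexp background correction as planned. It was 0.25 when 3 spots of cKO replicate 2 below their local background were left out, a setting chosen after seeing the data.

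Krt17, the type I keratin of the outer root sheath and other follicle layers, was read by a very bright spot at 40.2% to 47.2% of the scanner's saturation value, and it was not flagged as saturated on any array. Its processed signals were 270634 and 292259 scanner units in the controls of litters 1 and 2 and 259558 and 274078 in the cKO animals. The log2 values were 8.49 and 8.54 in the controls and 8.39 and 8.46 in the cKO animals. The cKO values lay just below the control values, and the whole span over the 4 animals was narrower than the step between littermates for Krt6a. The means were 8.52 ± 0.04 and 8.43 ± 0.05 (SD, n = 2 each). The cKO level was 93.9% of control, with a 95% interval of the fold of 0.80 to 1.10 (log2 difference -0.09 ± 0.09, SE; adjusted p = 0.654, limma). Under normexp background correction the difference was -0.39, and with quantile normalization the sign turned to 0.11. For this reason no direction is given for Krt17.

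**Figure D2:**
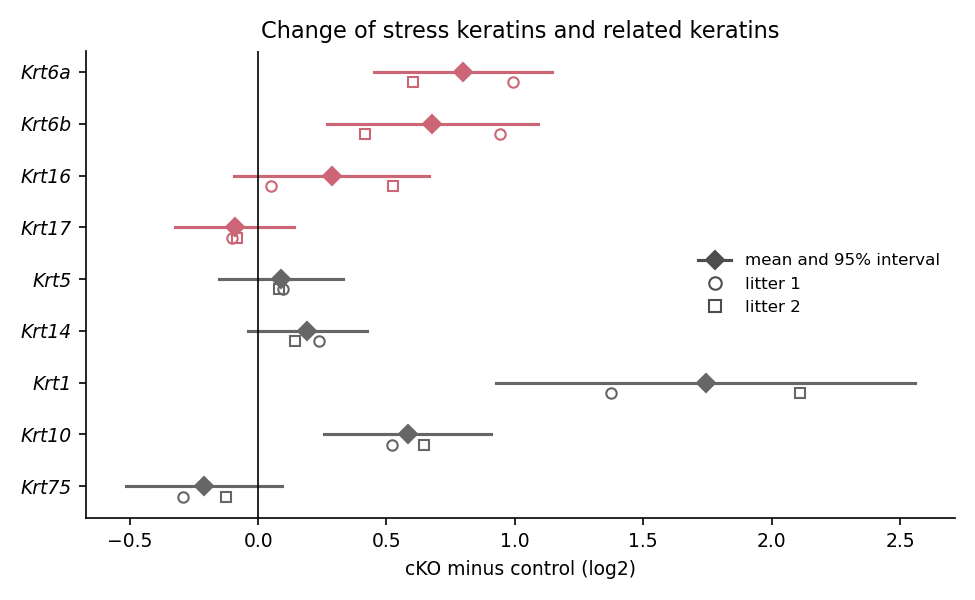
Log2 difference between cKO and control skin (x axis) for the 4 stress keratins in red and 5 related keratins in grey (y axis). Diamonds and lines are the mean and 95% interval over 2 animals per group, and open circles and squares are litters 1 and 2. The intervals of Krt6a and Krt6b lie above 0, while those of Krt16 and Krt17 include 0.

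The keratins that predominate in unwounded epidermis are given by layer. In the basal layer, Krt5 (8.37 and 8.30 in the controls, 8.47 and 8.38 in the cKO animals of litters 1 and 2) differed by 0.09 ± 0.09 (SE; adjusted p = 0.674, limma). Krt14, the partner of Krt5 and the source of the promoter that drove Cre, stood at 7.31 and 7.40 in the controls and at 7.55 and 7.54 in the cKO animals, a difference of 0.19 ± 0.09 (SE; adjusted p = 0.386). Both differences were smaller than that of Krt6a. In the suprabasal layers, Krt1 (2.43 and 2.55 in the controls, 3.801 and 4.66 in the cKO animals) differed by 1.74 ± 0.30 (SE; adjusted p = 0.127) and Krt10 by 0.58 ± 0.12 (SE; adjusted p = 0.159). Krt75, a type II keratin of the companion layer, differed by -0.21 ± 0.11 (SE; adjusted p = 0.453). A wider list of 16 measured epithelial keratins, which also holds mucosal and simple-epithelial keratins such as Krt13 and Krt8, had 10 members higher and 5 lower in both litters, against 40.4% and 32.1% of all genes. Of these 16, 10 had an unadjusted p under 0.05, against 16.2% of all genes, and none passed the adjusted p. Their median of 0.14 was 0.28 with quantile normalization and turned to -0.08 under normexp.

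Within each array, the stress keratins were set against the basal keratin of the same type, which removes any shift common to both. Krt6a minus Krt5 was higher in cKO skin by 0.71 (0.90 in litter 1 and 0.52 in litter 2), and Krt6b minus Krt5 by 0.59 (0.85 and 0.33), or by 0.39 without control replicate 1 and 0.37 with quantile normalization. Krt17 minus Krt14 was lower in cKO skin, with a difference of -0.28 (-0.34 and -0.22), or of -0.16 with quantile normalization. Of its 2 parts, Krt14 differed by 0.19 and Krt17 by -0.09. Krt16 minus Krt14 differed by 0.10, with opposite signs in the litters (-0.19 and 0.38), and turned to -0.09 without control replicate 2. The relation of the 2 type I stress keratins to each other, Krt16 minus Krt17, differed by 0.38 (0.15 and 0.61). The exact permutation test gave p = 0.333 (two-sided) for the keratin 6 ratios, for Krt17 minus Krt14 and for Krt16 minus Krt17, and 0.667 for Krt16 minus Krt14. The smallest p that 2 against 2 arrays allow is 0.333.

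Across the keratin family, 37 genes were measured above background, and Krt6a ranked 4, Krt6b 8, Krt16 11 and Krt17 23 from the highest difference down. Only Krt1, Krt7 and Krt36 stood above Krt6a. Of the 33 other keratins, 14 had both cKO arrays above both control arrays (28% of all genes did), 13 had them below (21.4% of all genes) and 6 overlapped. None of the 33 passed an adjusted p of 0.05 in limma, while 16 had an unadjusted p under 0.05 (16.2% of all genes). Their median difference was 0.06, against 0.48 for the 4 stress keratins and 0.03 over all genes. The 4 stress keratins ran from -0.09 (Krt17) to 0.80 (Krt6a), and the Krt6b probe is also listed for Krt6a, so their median describes no single gene. The differences of the 33 ran from -1.23 (Krt90) to 1.74 (Krt1), so both directions were found in the family.

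**Figure D3:**
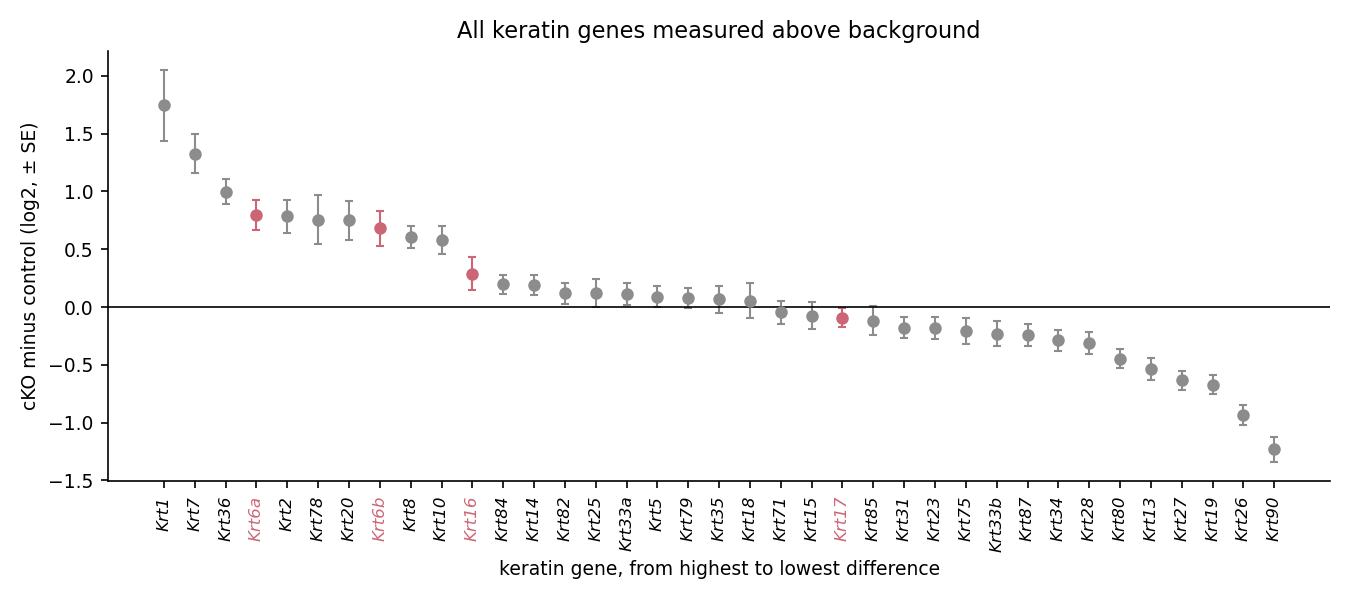
Log2 difference between cKO and control skin with its SE (y axis) for the 37 keratin genes measured above background, ordered from the highest to the lowest (x axis). The stress keratins are in red: Krt6a and Krt6b lie among the upper 8 genes, Krt16 in rank 11 and Krt17 in rank 23.

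The members lie in the 2 keratin gene clusters of the mouse, type II on chromosome 15 and type I on chromosome 11. Among the neighbours of the keratin 6 genes, in the order of the probes along chromosome 15, Krt82 differed by 0.12, Krt90 by -1.23, Krt75 by -0.21, Krt6b by 0.68, Krt6a by 0.80, Krt5 by 0.09, Krt71 by -0.05 and Krt2 by 0.78. The difference therefore changed sign or size between adjacent genes other than Krt6b and Krt6a, and the Krt6b probe is also listed for Krt6a. On chromosome 11, the order Krt36, Krt13, Krt15, Krt19, Krt14, Krt16 and Krt17 gave 0.998, -0.54, -0.07, -0.67, 0.19, 0.29 and -0.09. The 16 other keratins measured on chromosome 15 had a median of 0.08 and the 17 on chromosome 11 a median of -0.18.

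The litters showed how far the 3 higher genes varied. The difference in litter 1 exceeded that in litter 2 for Krt6a (0.99 and 0.60) and Krt6b (0.94 and 0.42), and was below it for Krt16 (0.05 and 0.52). The gap between litters was 0.39 for Krt6a, 0.53 for Krt6b and 0.47 for Krt16, larger than in most genes, whose median gap was 0.12. For Krt17 the litters differed by 0.02 (-0.10 and -0.08). As each litter held 1 animal of each genotype, the difference between litters was not tested.

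**Figure D4:**
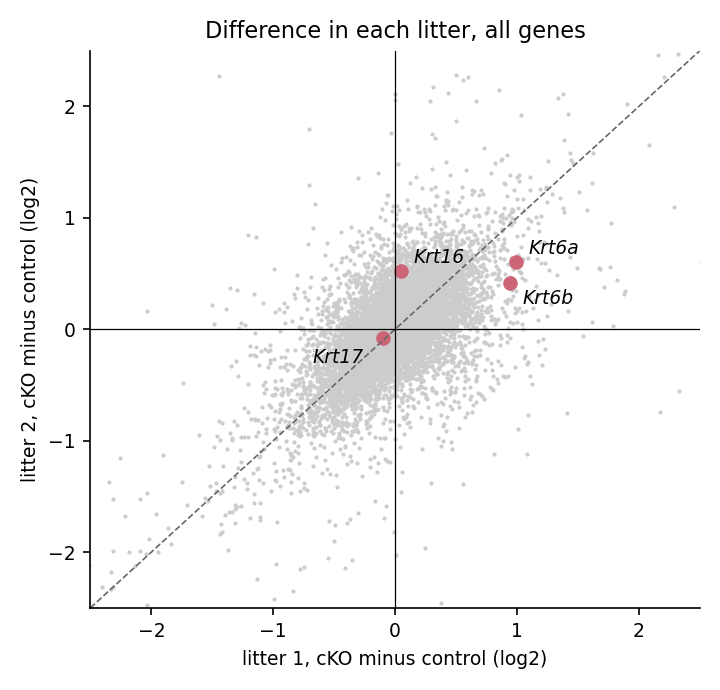
Log2 difference between cKO and control littermates in litter 1 (x axis) and litter 2 (y axis). Grey points are all 15552 genes (68 lie outside the plotted range), red points are the stress keratins, and the dashed line marks equal differences. Krt6a and Krt6b lie below the line, Krt16 above it and Krt17 near the origin.

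The genes most like each stress keratin over the 4 arrays were found by the distance between profiles centred on their own means. Krt6a and Krt6b were 0.20 apart, and 19 of 15551 genes were nearer to Krt6a than Krt6b was. As the Krt6b probe is also listed for Krt6a, this distance cannot show that 2 separate genes changed alike. The nearest genes to Krt6a were Lrrc4 (0.09), the keratin gene Krt20 (0.11) and Amigo2 (0.11, well above background on 2 of 4 arrays). The nearest to Krt6b were Slc16a9 (0.08), Nfkbiz, which encodes a regulator of NF-kappa B (0.09), and Ankrd1 (0.10). For Krt16 they were Tbc1d12 (0.03, well above background on 3 arrays), Ppp1r3a (0.04) and Csta1 (0.04), and for Krt17 Ccnh (0.0091), Moap1 (0.0100) and Lsm7 (0.01). Krt16 and Krt6a were 0.67 apart, with 2714 genes nearer to Krt6a, and Krt17 and Krt6a 0.92 apart, with 10566 nearer. With 4 arrays, such likeness is a description only.

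Ligands and receptors known to induce stress keratins showed differences of both signs, from -0.59 to 0.54. Of 29 listed genes, 18 were measured, 8 were higher and 6 lower in both litters (40.4% and 32.1% of all genes), and their median was 0.07 against 0.03 over all genes. The EGF receptor ligand genes Tgfa and Hbegf, whose products ADAM17 sheds, differed by -0.54 ± 0.13 and -0.59 ± 0.16 (SE), and Egf by 0.34 ± 0.09. None of the 18 passed the test over all genes (smallest adjusted p = 0.199, limma), and 4 had an unadjusted p under 0.05, against 16.2% of all genes.

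Among 33 measured transcription factors and other regulators of keratin genes, 14 were higher and 10 lower in both litters (median 0.04, and -0.10 under normexp). Of the 14, Rara was well above background on 0 control and 2 cKO arrays, so it passed the filter through the cKO arrays only. Over all genes, 40.4% were higher and 32.1% lower in both litters. Egr1, an immediate-early factor, stood at 3.88 and 3.50 in the controls and at 1.57 and 1.19 in the cKO animals, a difference of -2.31 ± 0.20 (SE; adjusted p = 0.0513, limma). Junb, a part of the AP-1 factor, differed by -0.42 ± 0.10 and Myc by 0.51 ± 0.11 (SE). None of the 33 passed, and 7 had an unadjusted p under 0.05, against 16.2% of all genes. Of 17 keratin-binding and filament-handling genes, 3 were higher and 8 lower in both litters (median -0.09, but 0.04 without control replicate 2 and 0.01 without cKO replicate 1), and Sfn, which encodes stratifin, differed by -0.30 ± 0.09 (SE; adjusted p = 0.231). The desmosomal genes Pkp2 and Evpl differed by -0.34 ± 0.11 and -0.22 ± 0.09. None of the 17 passed, and 2 had an unadjusted p under 0.05.

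Other genes of the wounded or alarmed epidermis did not share one direction with the keratin 6 genes. Of 33 measured, 14 were higher and 15 lower in both litters, against 40.4% and 32.1% of all genes (median -0.03, and 0.18 under normexp). The interleukin 36 alpha gene Il1f6 stood at -4.60 and -4.36 in the controls and at -2.45 and -1.89 in the cKO animals (difference 2.31 ± 0.22, SE; adjusted p = 0.0534, limma), and Ccl20, a chemokine gene, differed by 0.88 ± 0.10 (adjusted p = 0.0724). In the other direction, Lce3c, a late cornified envelope gene of injured skin, differed by -2.91 ± 0.29 (adjusted p = 0.0571). The alarmin genes S100a8 and S100a9, which often accompany keratin 6 in inflamed skin, differed by -0.27 ± 0.13 and -0.62 ± 0.28 (adjusted p = 0.403 and 0.385), and Sprr1b by -0.43 ± 0.12 (adjusted p = 0.232). The S100a9 difference lay mainly in litter 2 (-0.06 in litter 1 and -1.19 in litter 2). Higher in cKO skin were Sprr2d, not well above background on either control array and at least 7.12-fold higher (adjusted p = 0.117), and the interleukin 36 beta gene Il1f8, by 1.20 ± 0.22 (adjusted p = 0.137). The last 5 genes were picked with their values in view. The bound sets the mean of the cKO arrays against the higher, per control array, of the probe and the dimmest probe well above background. None of the 33 passed, and 12 had an unadjusted p under 0.05, against 16.2% of all genes.

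Genes of cell division, which is often raised where stress keratins are induced, had a median of 0.04 over 20 genes (-0.13 under normexp and -0.0089 without control replicate 1). Of these, 9 were higher and 2 lower in both litters, against 40.4% and 32.1% of all genes. Mki67 differed by 0.31 ± 0.11 (SE; adjusted p = 0.302, limma), and Aurkb and Top2a each by 0.14. None of the 20 passed, and 1 had an unadjusted p under 0.05, against 16.2% of all genes.

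As the stress keratins are also expressed in follicles, genes of the follicle are given beside them. Of 9 measured genes of the companion layer and inner root sheath, 1 was higher and 7 lower in both litters (40.4% and 32.1% of all genes were). Their median was -0.21 (-0.06 with quantile normalization and -0.46 under normexp). Tchhl1, a trichohyalin-like gene, differed by -0.74 ± 0.09 (SE; adjusted p = 0.0728, limma). Krt26 stood at 6.20 and 6.27 in the controls and at 5.25 and 5.34 in the cKO animals (difference -0.93 ± 0.09, SE; adjusted p = 0.0534, limma), and Krt27 differed by -0.63 ± 0.08 (adjusted p = 0.0854). The summed signal of these 9 genes, in multiples of the array's 75th percentile, was 2610 to 2720 in control and 2281 to 2394 in cKO skin. Such a sum is set mainly by the brightest probes of a list. Of 10 outer root sheath and bulge genes, 2 were higher and 6 lower in both litters (median -0.13, and -0.31 under normexp), with a summed signal of 52.6 to 58.9 in control and 46.5 to 52.3 in cKO skin. The follicle genes Sox9, Fgf22 and Lrig1 differed by -0.32 ± 0.10, -0.73 ± 0.11 and -0.22 ± 0.13 (SE; adjusted p = 0.250, 0.114 and 0.469, limma). The part of these differences in the keratin results was not tested.

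Marker lists of the cell types in the biopsies are given as counts and summed levels, and none of their genes passed the adjusted p in limma. The counts stand beside 40.4% of all genes higher and 32.1% lower in both litters. On the same summed scale, the 10 fat cell genes gave 289 to 385 in control and 412 to 454 in cKO skin (8 higher, 0 lower in both litters), the 11 skeletal muscle genes 448 to 603 and 651 to 655 (9 higher, 0 lower) and the 7 hair shaft keratins 1649 to 1772 and 1587 to 1669 (2 higher, 3 lower). The 12 keratinocyte genes gave 1371 to 1386 in control and 1557 to 1668 in cKO skin (10 higher, 2 lower), 5 of which are keratins named above or Krt15. The 7 T cell genes gave 1.85 to 1.98 and 1.29 to 1.48 (0 higher, 6 lower), and the 4 red cell genes 69.8 to 109 and 52.7 to 81.3 (0 higher, 4 lower). Of the 6 lower T cell genes, Cd2 was well above background on 2 control and 0 cKO arrays, so it passed the filter through the controls only. The 5 melanocyte genes gave 140 to 167 and 186 to 196 (4 higher, 1 lower), the 8 macrophage and Langerhans cell genes 15.2 to 16.4 and 15.01 to 16.2 (5 higher, 1 lower), the 7 fibroblast genes 510 to 769 and 406 to 682 (2 higher, 4 lower) and the 6 endothelial genes 6.36 to 7.87 and 6.76 to 6.91 (0 higher, 3 lower). The summed ranges of the groups overlapped for the hair shaft, red cell, macrophage, fibroblast and endothelial genes. As the brightest probes weigh most in each sum, a sum does not describe all genes of its list alike. Of 6 neutrophil genes on the array, 0 passed the filter on dim probes. The part of these differences in the keratin results was not tested.

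**Figure D5:**
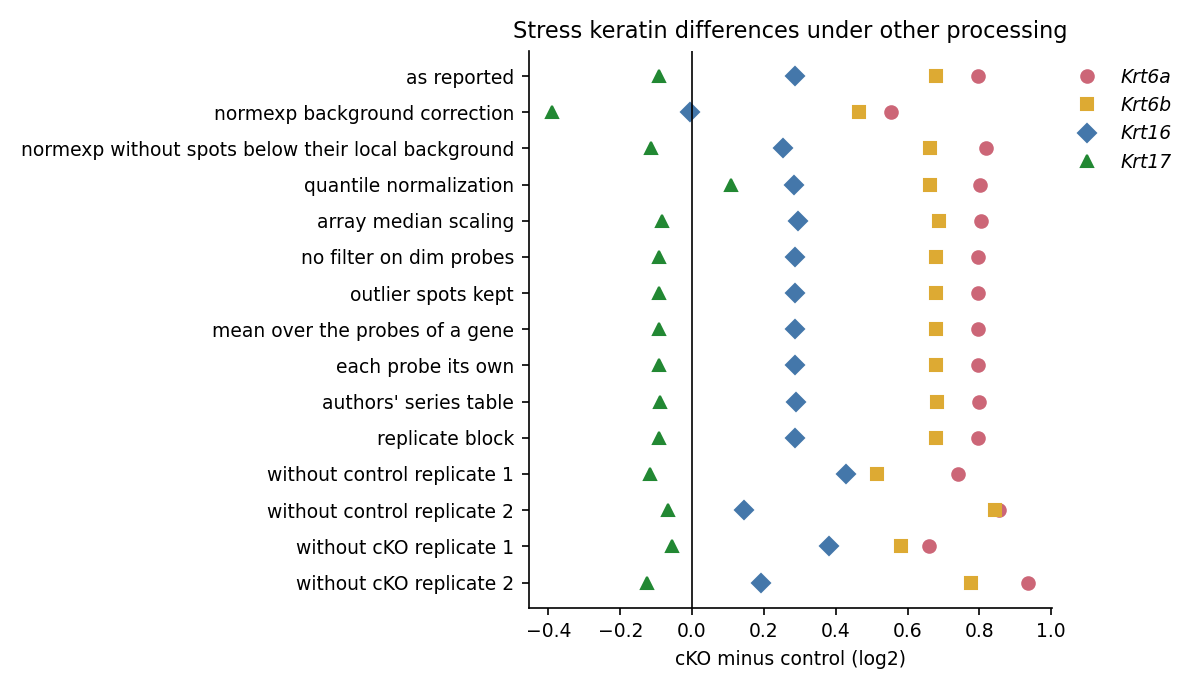
Log2 difference between cKO and control skin (x axis) of each stress keratin as reported and under 14 other ways of processing (y axis). Krt6a stays between 0.55 and 0.93 and Krt6b between 0.46 and 0.84, while Krt16 lies just below 0 under normexp. Krt17 runs from -0.39 under normexp to 0.11 under quantile normalization.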

How the data were processed

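Back skin RNA of 4 animals (2 control, 2 cKO) was labelled with Cy3 and read on 1-colour Agilent arrays (design 014868, positions in mm9), per the labels' protocols and the file headers. The deposited scanner files hold the authors' intensity values. Agilent Feature Extraction is given as version 10.5 in the submitters' processing notes and as 10.7.3.1 in the file headers. The authors' series table holds log2 values and followed the scanner values (correlation 0.99999) after centring each probe on its median over the arrays (column medians -0.08 and 0.06 for the controls and -0.06 and 0.08 for the cKO arrays of litters 1 and 2).

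Processed signals were divided by their 75th percentile on each array and log2-transformed. Control spots and outlier-flagged spots (51 to 66 per array) were left out. Probes were kept if the scanner called them well above background in both animals of either group (22190 of 41174 probes), and the probe of highest mean stood for its gene. Symbols were updated through RefSeq accessions (26690 probes), symbols (5189) or synonyms (952) of assembly GRCm38.p6. The other 8343 kept the files' name. Limma 3.58.1 (R 4.3.3) compared the groups without a covariate, two-sided, with Benjamini-Hochberg adjustment over 15552 genes. The fit was tested on 10 simulated data sets with 200 changed genes of 15552.

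The labels give a shared litter for each replicate number, so the numbers pair the animals (deviations from the group means correlated at 0.35 between the groups, over genes). Litter as a block was an alternative, as the design text names no model. The members and lists were chosen with earlier results of these data known. Named beside the 4 members were, of each list, the 3 genes with the smallest p, 5 related keratins, Adam17, and the 3 genes nearest to each member. Other names, such as locus neighbours, were chosen after their values were seen.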

Additional observations from a re-analysis of the deposited data

Results flagged for a closer look

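A few values had opposite signs in the litters. Within arrays, the difference of Krt16 minus Krt14 between cKO and control was -0.19 in litter 1 and 0.38 in litter 2. The difference of Krt18 was -0.088 in litter 1 and 0.20 in litter 2. The median difference was 0.0073 and -0.13 over the wound and alarm genes, 0.10 and -0.0054 over the inducing ligands and receptors, and -0.046 and 0.020 over the 33 other keratins, in litters 1 and 2. Each litter held 1 animal of each genotype, and the difference between litters was not tested.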

How the results depend on the processing

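Krt6a and Krt6b kept their direction under all 14 alternatives and passed the adjusted p of 0.05 under 0 of them (lowest adjusted p = 0.0572 for Krt6a, limma with normexp where spots below local background were left out, and highest 0.728 under normexp). Leaving out 1 animal gave 0.66 to 0.93 for Krt6a, 0.51 to 0.84 for Krt6b, 0.15 to 0.43 for Krt16 and -0.13 to -0.06 for Krt17. Krt16 reversed to -0.0066 under normexp, where 3 spots of cKO replicate 2 lay below their local background; without those spots, an alternative chosen after seeing the data, it was 0.25. Krt17 was -0.39 under normexp and -0.11 without those spots, and it reversed to 0.11 with quantile normalization. Krt17 minus Krt14 moved to -0.16 with quantile normalization. The cause of these shifts was not tested. Leaving out 1 animal gave 0.61 to 0.80 for Krt6a minus Krt5, 0.39 to 0.79 for Krt6b minus Krt5, -0.09 to 0.28 for Krt16 minus Krt14 and -0.32 to -0.24 for Krt17 minus Krt14. With litter as a replicate block, the adjusted p of the 4 members ran from 0.124 to 0.437, so no call changed for them. Of all genes tested, 0.341% passed as reported. The share was 0% with normexp, 0.862% with normexp without the spots below local background, 0.514% with quantile normalization, 0.688% with array median scaling, 0% without the filter on dim probes (28023 genes tested), 0.158% of 22190 probes each taken on its own, and 0% with litter as a replicate block. With 1 animal left out it was 0% (without either control animal) to 0.244%. Of the listed genes, 2 passed with quantile normalization (Egr1 and Krt26), and 0 to 3 with 1 animal left out (Lce3c, Krt1 and Il1f6 without cKO replicate 1). The medians of the gene lists moved by more than the spread between litters in 23 recomputed cases and by less in 25. Under normexp the medians of the epithelial keratins (-0.08), regulators (-0.10), cell division (-0.13) and wound genes (0.18) changed sign. The list medians were not recomputed without the spots below local background. With 2 arrays per group, few animals set the precision.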

Other observations

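Keratins of simple epithelia, which are scarce in the epidermis between follicles, had differences of both signs, and none of those measured passed the test over all genes. Krt7 stood at 1.20 and 1.63 in the controls of litters 1 and 2 and at 2.78 and 2.70 in the cKO animals, a difference of 1.33 ± 0.17 (SE; adjusted p = 0.0840, limma). Krt8 differed by 0.60 ± 0.10 (adjusted p = 0.114) and Krt20, the second nearest profile to Krt6a, by 0.75 ± 0.17 (adjusted p = 0.172). Krt19 differed by -0.67 ± 0.08 (adjusted p = 0.0778). Krt18, the partner of Krt8, overlapped between the groups and differed by 0.06 ± 0.15 (adjusted p = 0.883; -0.09 in litter 1 and 0.20 in litter 2). These genes were chosen with their values in view.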
